A study of Rattus norvegicus with 48 samples.

Results

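The genes described here mark inhibitory interneurons of the cerebral cortex. They were chosen by name and by rat Ensembl ID, not by their values. The IDs are ENSRNOG00000000007 for Gad1, ENSRNOG00000018200 for Gad2, ENSRNOG00000006471 for Pvalb, ENSRNOG00000001837 for Sst, ENSRNOG00000018808 for Vip and ENSRNOG00000009768 for Npy. Of these 6 IDs, 5 had a row in both count tables, which together list 18997 IDs, and Npy, a neuropeptide gene of some interneurons, was not analysed here. The names come from the rule that chose the genes, since the reference table used here paired 0 of the IDs with a symbol. For the same reason other genes of the GABA pathway and markers of other cell types were not analysed here, and the identity of the cells was not checked against such markers.

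Inhibitory interneurons release GABA, the main inhibitory transmitter of the cortex, and restrain the firing of excitatory neurons. Glutamate decarboxylase, which exists in 2 forms encoded by Gad1 and Gad2, makes GABA from glutamate. Pvalb, Sst and Vip mark largely separate classes of these cells, which contact different parts of their target neurons.

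RNA was sequenced from patches that a laser cut out of sections of motor cortex (M1) around a single-shank silicon electrode, a thin probe used to record from neurons. All rats were wild-type male Sprague-Dawley animals aged 12 to 14 weeks, per the labels' protocols, and their brains had been fixed with paraformaldehyde. What is called near here is tissue up to 100 µm from the probe. Far tissue came from roughly 500 µm away and was pooled from several smaller patches. The implanted groups were near and far tissue at 24 h (3 rats), 1 week (5 rats) and 6 weeks (4 rats) after implantation. Naive groups were tissue of 3 rats without an implant, labelled with the same 2 distances. The question of these comparisons was whether expression at the probe differed from expression farther away and from unimplanted cortex, and how that changed with time.

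Each of the 48 libraries held between 3363892 and 12844185 counts, and between 3062 and 16023 genes had a count. In 4 libraries fewer than 6000 genes had a count. They were the right near library of rat 29 at 24 h, the left near library of rat 20 at 1 week, and the right near and left far libraries of rat 23 at 1 week. At 1 week the median number of genes with a count was 8264.5 in near libraries and 10429 in far libraries. Fitted differences that moved most without these 4 libraries are given without them as well, a setting added after the data were seen. In that setting rat 20 has no near library. Rat 23 keeps its left near and right far libraries, which come from different implant sites. Libraries of the same rat and distance were summed, so the rat is the replicate. Levels are given in CPM, in which each library's counts are divided by its total and by a TMM factor that corrects for differences in library composition. They carry no correction for gene length, so levels of different genes are not compared.

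The 5 genes differed in how often they were seen at all. Of the 48 libraries, the count was 0 in 1 for Gad2, 3 for Gad1, 4 for Sst, 7 for Pvalb and 24 for Vip. Near tissue held 11 of the Vip zeros and 5 of the Pvalb zeros among its 18 libraries, against 9 and 1 among the 18 far libraries. All 4 libraries with few genes had no Vip count. The near Pvalb zeros include those of rat 29 on the right and rat 20 on the left. The share of zeros over all genes is not given here, so the excess near the probe is not shown to be particular to these genes. A count of 0 allows up to 3 counts, which in the summed samples comes to between 0.134 and 0.6 CPM, and this limit covers counting error only.

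**Figure D1:**
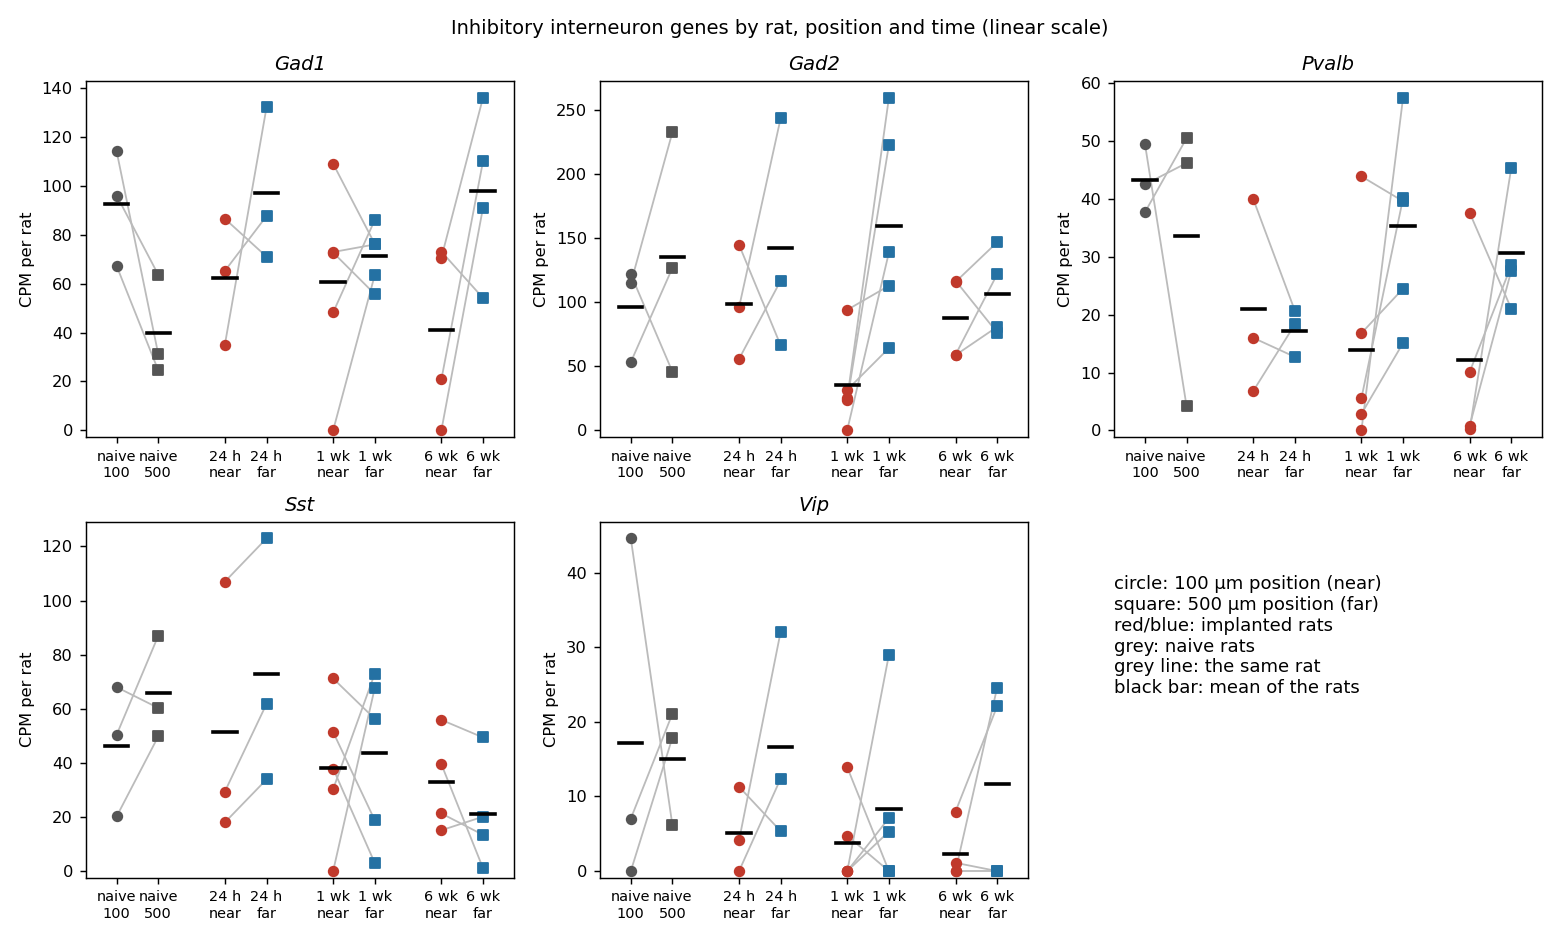
Each panel shows the level of 1 gene in CPM on a linear axis. A point is 1 rat at 1 position, a grey line joins both positions of a rat and a black bar is the group mean. Gad2 was lower near the probe in all 5 rats at 1 week, and the near and far ranges of every gene overlapped at every time.

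Gad2, which encodes the form of the enzyme found mainly at nerve terminals, was lower beside the probe at 1 week. Its level was 94.2 CPM near and 113 CPM far in rat 9, 25.3 and 260 CPM in rat 10, 0.4 and 139 CPM in rat 20, 31.7 and 64.3 CPM in rat 22, and 24.1 and 223 CPM in rat 23. Near tissue was lower than far tissue in all 5 rats. The ranges still overlapped, because near tissue of rat 9 was above far tissue of rat 22. The means were 35.1 ± 35.1 CPM near and 160 ± 80.2 CPM far (SD, n = 5). The near range lay wholly below the far range for 0 of the 5 genes at any time, where the share of all genes was 6.3% at 24 h, 0.995% at 1 week and 2.34% at 6 weeks. In the fit of all 12 implanted rats with the rat as a block, Gad2 fell by 2.79 on the log2 scale, 6.93-fold, with an approximate standard error of 0.60 (edgeR quasi-likelihood test, Benjamini-Hochberg adjusted p = 0.00203 over 14399 genes). At this time 0.396% of all genes tested were called at an adjusted p below 0.05, and 0.34% were called lower near the probe. Near tissue was below far tissue in all 5 rats for 5.22% of genes. All genes had a median log2 difference of -0.66 at 1 week, and relative to that median Gad2 stood at -2.13. Fewer interneurons and less RNA per interneuron cannot be told apart in such tissue, for Gad2 or for any other gene here.

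The Gad2 call at 1 week rested on part of the data. Without rat 10 the log2 difference was -2.57 with an adjusted p of 0.183, and without rat 20 it was -1.97 with an adjusted p of 0.151. The near library of rat 20 held 2 Gad2 counts and was among the libraries with few genes. Without the 4 libraries with few genes the difference was -1.95 with an adjusted p of 0.124. Without the rat as a block it was -2.19 with an adjusted p of 0.352, and with the libraries not summed it was -2.99 with an adjusted p of 0.593. The difference was negative under all 19 alternatives, between -3.53 and -1.95. The call held under 14 of them, and adjusted p-values over all 19 ran from 0.000308 to 0.593. Many of these 14 left out a rat of another time, which hardly moved the difference at 1 week (-2.81 to -2.79). Such settings could hardly test the difference, so 14 of 19 overstates how firmly the call held. Every alternative that lost the call is given above.

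**Figure D2:**
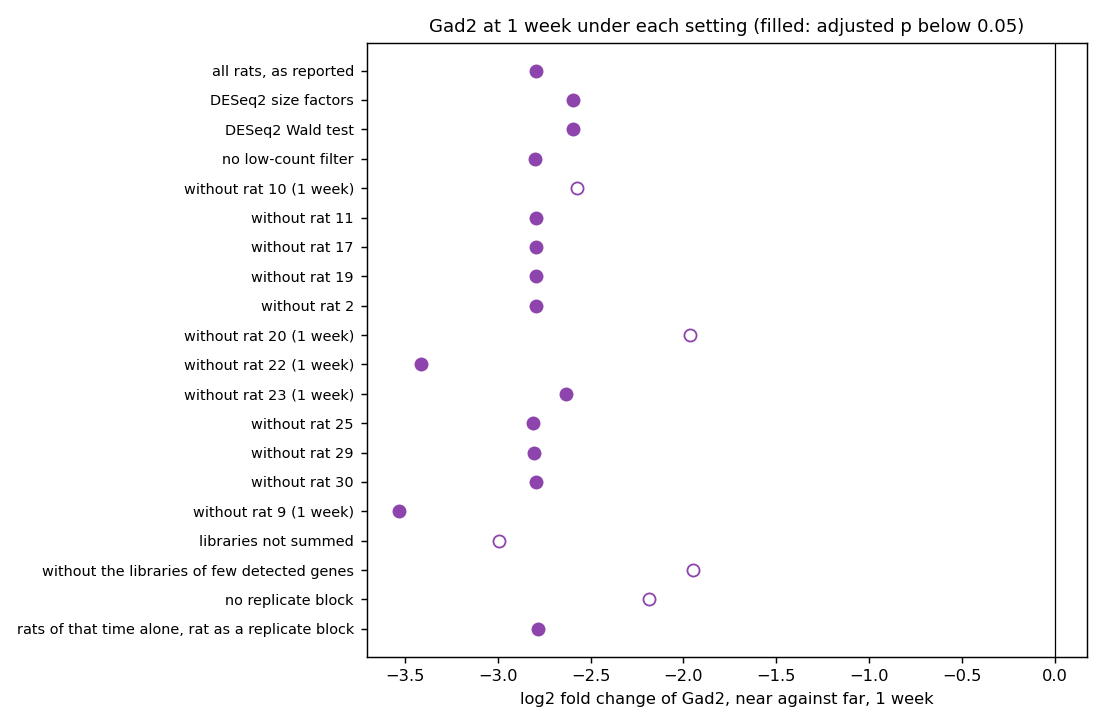
Log2 fold change of Gad2, near against far tissue at 1 week, under each setting tried. Filled points had an adjusted p below 0.05. All points lie between -3.53 and -1.95, and 5 of the 19 alternatives are open. Settings without a rat of another time could hardly move the value at 1 week.

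At 24 h, Gad2 was 96.1 CPM near and 244 CPM far in rat 25, 145 and 66.4 CPM in rat 29, and 55.8 and 117 CPM in rat 30. It was lower near the probe in rats 25 and 30 and higher in rat 29, and the log2 difference was -0.48 ± 0.67 (SE from the fit; edgeR adjusted p = 1). At 6 weeks Gad2 was 59.1 CPM near and 122 CPM far in rat 2, 58.8 and 80.9 CPM in rat 11, 117 and 76.4 CPM in rat 17, and 116 and 147 CPM in rat 19. It was lower near the probe in 3 of 4 rats, and the difference of -0.33 ± 0.55 was not called (edgeR adjusted p = 1). Its 95% interval ran from -1.42 to 0.76. The change of the near to far difference was itself fitted. It was -2.31 ± 0.90 from 24 h to 1 week (unadjusted p = 0.0101) and 2.46 ± 0.82 from 1 week to 6 weeks (unadjusted p = 0.00257), and edgeR's adjusted p was 1 for both. Without rat 20 these changes were -1.49 and 1.64, and without the 4 libraries with few genes they were -1.53 and 1.64. A change of the difference with time was thus not called, and 0% and 0.0278% of all genes were called in these comparisons.

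Over the mean of the 3 times Gad2 was again the one gene of the group that was called, at a log2 difference of -1.20 ± 0.35 with an edgeR adjusted p of 0.0476. That call was at the edge of the threshold, since Gad2 ranked 217 by p among 217 called genes, 1.51% of those tested, with 1.13% called lower near the probe. It held under 2 of 18 alternatives, those without rat 9 or without rat 29, and the difference ranged from -1.45 to -0.89. A test over rats alone gave each rat the same weight. The near minus far difference in log2(CPM + 1) averaged -1.41 with an SD of 2.1 over 12 rats and was negative in 10 of them (exact permutation test by sign flips, two-sided p = 0.0215, where 0.000488 is the smallest p possible). For 5.67% of genes at least 10 of 12 rats were lower near the probe, and 10.3% of genes had a p below 0.05 in this test with near tissue lower. Adjusted over all genes, the p of Gad2 was 0.264, and the median mean difference of all genes was -0.24. In the 11 rats left without the libraries with few genes the mean was -0.90 and the exact permutation p was 0.0605.

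**Figure D3:**
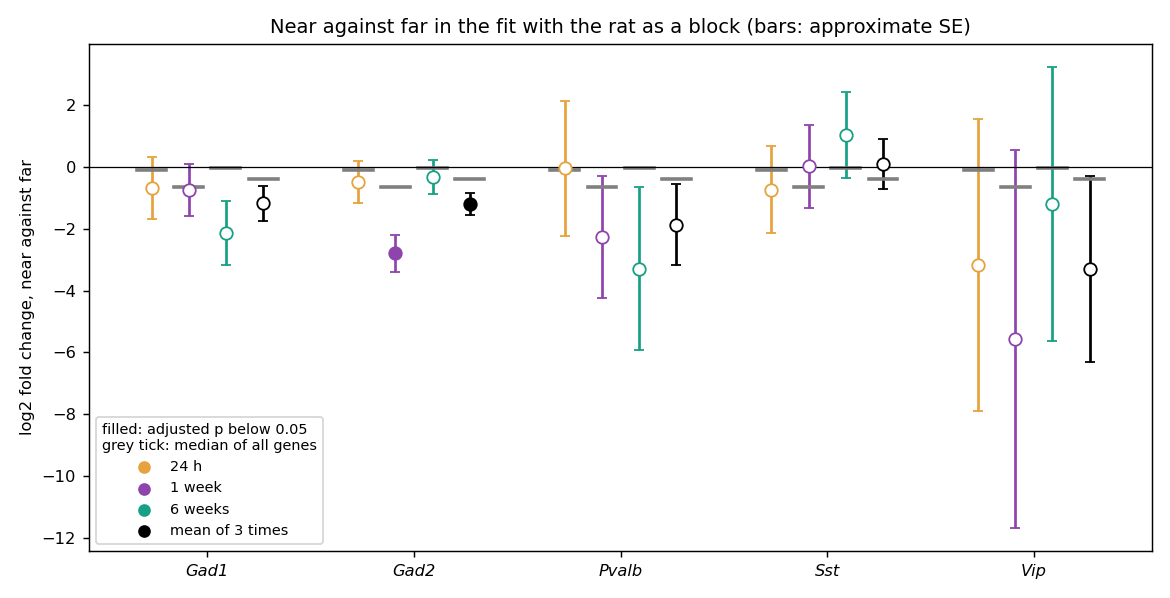
Log2 fold change of each gene, near against far tissue, at each time and over the mean of the 3 times. Bars are approximate standard errors of the fit, filled points had an adjusted p below 0.05 and grey ticks mark the median of all genes. The only filled points are Gad2 at 1 week (-2.79) and over the mean of the 3 times (-1.20).

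Gad1, which encodes the form of glutamate decarboxylase that makes most of the GABA in the brain, had no count in near tissue of 2 rats. At 1 week it was 72.9 CPM near and 76 CPM far in rat 9, 48.2 and 86 CPM in rat 10, 109 and 76.2 CPM in rat 20, 0 and 63.5 CPM in rat 22, and 72.7 and 55.7 CPM in rat 23. In 3 of 5 rats near tissue was the lower, and the ranges overlapped. The log2 difference was -0.74 ± 0.85 (edgeR adjusted p = 0.964), with an interval from -2.40 to 0.92, and it was 0.0075 without rat 22. Without the 4 libraries with few genes it was -1.57 (edgeR adjusted p = 1). In rat 20, whose near Gad2 level was the lowest of all, near Gad1 was the highest near value of the 12 implanted rats.

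At 6 weeks Gad1 was 0 CPM near and 91 CPM far in rat 2, 20.8 and 110 CPM in rat 11, 73.1 and 54.1 CPM in rat 17, and 70.6 and 136 CPM in rat 19. All rats but rat 17 were lower near the probe, and the ranges overlapped. The difference was -2.13 ± 1.04, with an unadjusted p of 0.0422 and an edgeR adjusted p of 1. Leaving out rat 17 gave -3.30 and leaving out rat 2 gave -0.997, while a fit with no block gave -1.28. At 24 h Gad1 was 86.5 CPM near and 71 CPM far in rat 25, 35.1 and 132 CPM in rat 29, and 65.2 and 87.6 CPM in rat 30, a difference of -0.68 ± 1.00 (edgeR adjusted p = 1). The rat 25 pair went against the other two. At 24 h and 6 weeks 0.132% and 0.0764% of all genes were called, and none of the 5 genes was among them.

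Over all 12 rats Gad1 averaged 54.5 ± 34.2 CPM near and 86.7 ± 27.2 CPM far (SD). The fit of the mean of the 3 times gave -1.18 ± 0.56, with an unadjusted p of 0.0366 and an edgeR adjusted p of 0.564. In 8 of 12 rats near tissue was lower, a count that 22.1% of genes reached or passed. The mean difference in log2(CPM + 1) was -1.45 with an SD of 2.43 (exact sign-flip permutation test, p = 0.0425), and its p adjusted over all genes was 0.341. Leaving out any 1 of 7 of the 12 rats put the exact permutation p above 0.05, at 0.0547 to 0.085. Scaled with DESeq2 size factors the exact permutation p was 0.104, and in the 11 rats without the libraries with few genes it was 0.00879. That last setting lacks rat 20, which was higher near the probe. In rat 23 it sets left near tissue against right far tissue, at 56.96 and 104.5 CPM. With all its libraries summed, rat 23 was higher near the probe. Rats 2 and 22, with no Gad1 count near the probe, gave differences of -6.52 and -6.01, and the other 10 rats lay between -2.35 and 0.515.

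Pvalb encodes parvalbumin, a calcium-binding protein of fast-spiking interneurons. At 1 week it was 2.86 CPM near and 15.1 CPM far in rat 9, 5.57 and 40.1 CPM in rat 10, 0 and 57.5 CPM in rat 20, 16.8 and 24.5 CPM in rat 22, and 43.9 and 39.6 CPM in rat 23. The level near the probe was lower in 4 of 5 rats, and near tissue of rats 22 and 23 reached into the far range. All 502 near counts of rat 23 came from its right library, which was among those with few genes. Its left near library held 0. At 6 weeks it was 10.1 CPM near and 28.5 CPM far in rat 2, 0.168 and 45.4 CPM in rat 11, 0.805 and 27.6 CPM in rat 17, and 37.6 and 21 CPM in rat 19. Here 3 of 4 rats were lower near the probe, with a single count in near tissue of rat 11 and 12 counts in that of rat 17. At 24 h it was 6.79 CPM near and 18.3 CPM far in rat 25, 16 and 12.7 CPM in rat 29, and 40 and 20.7 CPM in rat 30, so that 2 of 3 rats were higher near the probe.

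None of these Pvalb differences was called. The log2 difference was -0.04 ± 2.18 at 24 h (edgeR adjusted p = 1), -2.26 ± 1.97 at 1 week (adjusted p = 0.964) and -3.29 ± 2.63 at 6 weeks (adjusted p = 1), and -1.86 ± 1.32 over the mean of the 3 times (adjusted p = 0.89). The interval at 1 week, from -6.12 to 1.60, held both no difference and one larger than that of Gad2. The difference at 1 week was -1.40 without rat 20 and -3.03 without the 4 libraries with few genes. That at 6 weeks was -1.77 without rat 11 and -4.85 without rat 19. Without the rat as a block the difference was -1.35 at both times. Over 12 rats Pvalb averaged 15 ± 16.4 CPM near and 29.2 ± 13.6 CPM far (SD). Its mean difference in log2(CPM + 1) was -1.74 with an SD of 2.31, and 8 of 12 rats were lower near the probe (exact sign-flip permutation test, p = 0.021). Adjusted over all genes that p was 0.261, and without the libraries with few genes the unadjusted exact p was 0.0264 in 11 rats. The coefficient of variation was 109% near the probe and 46.6% far from it.

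Sst encodes somatostatin, a neuropeptide of interneurons that contact dendrites. At 24 h it was 18 CPM near and 33.9 CPM far in rat 25, 107 and 123 CPM in rat 29, and 29.4 and 61.8 CPM in rat 30, lower near the probe in all 3 rats. For 13.2% of genes near tissue was lower in every rat at this time, and the fitted difference of -0.74 ± 1.41 was not called (edgeR adjusted p = 1). At 1 week Sst was 71.2 CPM near and 56.3 CPM far in rat 9, 0 and 67.7 CPM in rat 10, 51.4 and 18.8 CPM in rat 20, 37.9 and 2.98 CPM in rat 22, and 30.3 and 73 CPM in rat 23. The rats went both ways, with 3 of 5 higher near the probe, and the difference was 0.01 ± 1.35 (edgeR adjusted p = 1).

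At 6 weeks Sst was 39.5 CPM near and 1.06 CPM far in rat 2, 15.1 and 20.1 CPM in rat 11, 21.3 and 13.4 CPM in rat 17, and 55.9 and 49.4 CPM in rat 19. It was higher near the probe in 3 of 4 rats, at a log2 difference of 1.02 ± 1.40 (edgeR adjusted p = 1). Over 12 rats near tissue averaged 39.8 ± 28.8 CPM and far tissue 43.4 ± 35.5 CPM (SD), and near tissue was lower in 6 rats, a count that 50.1% of genes reached or passed. The mean of the 3 times gave 0.10 ± 0.81 (edgeR adjusted p = 1), with an interval from -1.49 to 1.69, and the exact sign-flip permutation test gave p = 0.979. An interval of this width does not show that the levels were alike.

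Vip encodes vasoactive intestinal peptide, a marker of interneurons that mainly inhibit other interneurons. It was the most often missing of the 5 genes, and its level was 0 in near tissue of 6 of the 12 rats and in far tissue of 4 of them. In far tissue the 12 rats ranged from 0 to 32.1 CPM with a median of 6.23 CPM, and in near tissue from 0 to 13.9 CPM with a median of 0.554 CPM. It was lower near the probe in 7 rats, a count that 35.1% of genes reached or passed, and higher in 4, and both tissues of rat 2 were at 0. No Vip difference was called. The log2 difference was -3.16 ± 4.7 at 24 h, -5.56 ± 6.1 at 1 week and -1.21 ± 4.4 at 6 weeks. Over the mean of the 3 times it was -3.31 ± 3.02 (edgeR adjusted p = 0.958), with an interval from -9.22 to 2.6. That difference was -1.31, -1.43 and -1.42 without rat 20, 10 or 22, -1.29 without the 4 libraries with few genes and -1.17 with the libraries not summed. The exact sign-flip permutation test gave p = 0.165 for a mean difference of -1.22 with an SD of 2.88. At these counts a difference of several units on the log2 scale was not detectable.

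Of the 5 genes, edgeR called 0 at 24 h, 1 at 1 week, 0 at 6 weeks and 1 over the mean of the 3 times. At an unadjusted p below 0.05 there were 0, 1, 1 and 2, where the share of all genes was 3.07%, 6.05%, 2.49% and 7.78%. DESeq2's Wald test called 0, 1, 0 and 0 of the 5 genes, among 529, 1304, 330 and 1172 called of all genes. The median log2 difference of the 5 genes was -0.68 at 24 h, where the median of all genes was -0.08. It was -2.26 at 1 week against -0.66 over all genes, -1.21 at 6 weeks against -0.05, and -1.20 over the mean of the 3 times against -0.39. These medians describe 5 genes and were not tested. A call for Gad2 and none for the other 4 genes does not show that they differed, and that difference was not tested.

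The times were also compared within each tissue. Near Gad2 averaged 98.9 ± 44.7 CPM at 24 h, 35.1 ± 35.1 CPM at 1 week and 87.7 ± 33.1 CPM at 6 weeks (SD, n = 3, 5 and 4). The log2 change from 24 h to 1 week was -1.53 ± 0.84 and that from 1 week to 6 weeks was 1.31 ± 0.79, and neither was called in edgeR (adjusted p = 0.976 and 1). Far Gad2 averaged 143 ± 91.5, 160 ± 80.2 and 107 ± 33.9 CPM at the same times. Far Sst was 72.7 ± 45.3 CPM at 24 h and 21 ± 20.5 CPM at 6 weeks, with a log2 difference of -1.81 ± 0.96 that was not called (edgeR adjusted p = 1). No gene of the group was called between times in either tissue by edgeR or by DESeq2's Wald test, and 0 had an unadjusted p below 0.05 in edgeR, against 4.1% to 5.67% of all genes over these comparisons. In far tissue 0% of all genes were called. In near tissue 0.0469% were called between 24 h and 1 week, 0.0234% between 24 h and 6 weeks and 0.00781% between 1 week and 6 weeks.

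Against naive cortex edgeR called 0 of the 5 genes at either position and at any time. Gad1 in far tissue at 24 h and 6 weeks alone had an unadjusted p below 0.05, as did 7.17% and 7.82% of all genes in these comparisons. The share of all genes called was 0.0578%, 0.123% and 0.0434% for near tissue and 0.00748%, 0.127% and 0.0598% for far tissue at 24 h, 1 week and 6 weeks. The naive libraries have a table and a number series of their own, so the implant and a difference between these sets cannot be told apart. Naive Gad2 at the 100 µm position was 122, 53.3 and 115 CPM in naive rats 2, 3 and 5. The near levels at 1 week were below all of these in 4 of 5 rats, with rat 9 inside the naive range, and the log2 difference of -1.46 ± 0.76 was not called (unadjusted p = 0.0576, edgeR adjusted p = 0.601).

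Naive Pvalb at the 100 µm position was 49.5, 42.5 and 37.7 CPM in the same rats. At 6 weeks all 4 near values, of which the highest was 37.6 CPM, lay below this range, by a narrow margin in rat 19. Of all genes, 7.5% had near values wholly below naive values at this time. The fit gave -1.82 ± 1.88 (edgeR adjusted p = 1).

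For far tissue the naive level is that at the 500 µm position, which for Gad1 was 24.5, 31.1 and 63.6 CPM. Far values at 24 h, between 71 and 132 CPM, lay wholly above these, as they did for 5.81% of genes, with a log2 difference of 1.25 ± 0.50 (unadjusted p = 0.0159, edgeR adjusted p = 0.642). At 6 weeks the far values from 54.1 to 136 CPM overlapped the naive range in rat 17, and the difference was 1.26 ± 0.48 (unadjusted p = 0.0112, edgeR adjusted p = 0.608). DESeq2's Wald test called this last difference, at 1.32 with an adjusted p of 0.0346, among 659 genes where edgeR called 8. Far Sst at 6 weeks, from 1.06 to 49.4 CPM, lay wholly below naive Sst at 49.8 to 87 CPM, as for 3.37% of genes, and was not called (-1.70 ± 0.85, unadjusted p = 0.0566, edgeR adjusted p = 0.608).

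Naive tissue has no probe, so its 2 positions show how far libraries from 2 positions of a rat can differ. Naive Gad1 at 100 µm was 67.2, 114 and 96 CPM, above the level at 500 µm in all 3 rats and without overlap. For 9.85% of genes the 500 µm values lay wholly below the 100 µm values. The log2 difference of 1.27 ± 0.60 had an unadjusted p of 0.0366 and was not called in edgeR (adjusted p = 0.982), while DESeq2's Wald test called it with an adjusted p of 0.038, among 1357 genes. Its direction was opposite to that of near against far tissue in implanted rats. Naive Gad2 at 500 µm was 45.8, 127 and 233 CPM, higher than at 100 µm in naive rats 3 and 5, and the difference of -0.38 ± 0.46 was not called (edgeR adjusted p = 1). edgeR called 0% of all genes between the naive positions, and 5.07% had an unadjusted p below 0.05. All genes had a median log2 difference of 0.405 here, and relative to that median Gad1 stood at 0.86 and Gad2 at -0.79. The median number of genes with a count was 11504.5 in naive libraries at 100 µm and 8914 at 500 µm.

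The order of the 8 group means differed from gene to gene. Mean Gad1 ran from 98 ± 34.7 CPM in far tissue at 6 weeks, 96.9 ± 31.5 CPM in far tissue at 24 h and 92.4 ± 23.6 CPM in naive tissue at 100 µm down to 41.1 ± 36.5 CPM in near tissue at 6 weeks and 39.7 ± 20.9 CPM in naive tissue at 500 µm (SD). Far Gad1 at 1 week, at 71.5 ± 11.9 CPM, and near Gad1 at 24 h and 1 week, at 62.3 ± 25.8 and 60.6 ± 40.3 CPM, lay between. Mean Gad2 was highest in far tissue at 1 week and lowest in near tissue at 1 week, and the step from near tissue at 6 weeks to near tissue at 1 week, of 52.5 CPM, exceeded the larger SD of the pair, 35.1 CPM. It was the only such step among neighbours, 1 of 7 for Gad2 and 0 of 7 for each of the other 4 genes. The edgeR fit of near tissue between these times did not call it (log2 change 1.31 ± 0.79, unadjusted p = 0.1003). Neighbours in an ordered list are the closest means, which leaves little room for such a step. The share of such steps over all genes is not given here, so this step is not shown to be particular to Gad2.

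Mean Pvalb was highest in naive tissue at 100 µm, at 43.2 ± 5.94 CPM, and lowest in near tissue at 1 week and 6 weeks, at 13.8 ± 18 and 12.2 ± 17.5 CPM (SD). Mean Sst ran from 72.7 ± 45.3 CPM in far tissue at 24 h to 21 ± 20.5 CPM in far tissue at 6 weeks. Mean Vip ran from 17.2 ± 24 CPM in naive tissue at 100 µm to 2.27 ± 3.84 CPM in near tissue at 6 weeks, with all 3 near groups at the bottom. Neighbouring means of these genes lay within their spread.

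Both hemispheres of a rat were sampled at the same position in 18 cases, which shows the spread of these genes between libraries of the same animal. Differences of the tissue and of the library cannot be told apart in these pairs. The median absolute difference between hemispheres in log2(CPM + 1) was 0.757 for Gad1, 1.25 for Gad2, 1.24 for Sst, 1.41 for Pvalb and 3.56 for Vip. Vip pairs with a count of 0 on both sides, such as naive rat 5 at 100 µm, enter as no difference. Some of the widest gaps involved a library with few genes. They include near tissue of rat 23 at 1 week for Gad2, with 275 counts on the left and 0 on the right, and near tissue of rat 29 at 24 h for Gad1, with 427 and 1 counts. In the 15 pairs without such a library the median was 0.708 for Gad1, 0.877 for Gad2, 1.08 for Sst, 1.31 for Pvalb and 3.82 for Vip. The widest of these pairs for Gad2, with 1834 and 149 counts, was near tissue of rat 19 at 6 weeks, and that for Sst, with 580 and 0 counts, was naive tissue at 500 µm of naive rat 5.

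Near tissue was lower than far tissue at 14 of the 18 implant sites for Gad1 and for Gad2, a number that 4.76% of genes reached or passed. It was lower at 12 for Pvalb and at 9 for Sst, which 15.2% and 43.7% of genes reached or passed. Vip was lower near the probe at 8 sites, as were 53.7% of genes at 8 or more, higher at 5, and at 0 in both tissues at the other 5. Sites in both hemispheres of 1 rat are not separate replicates.

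**Figure D4:**
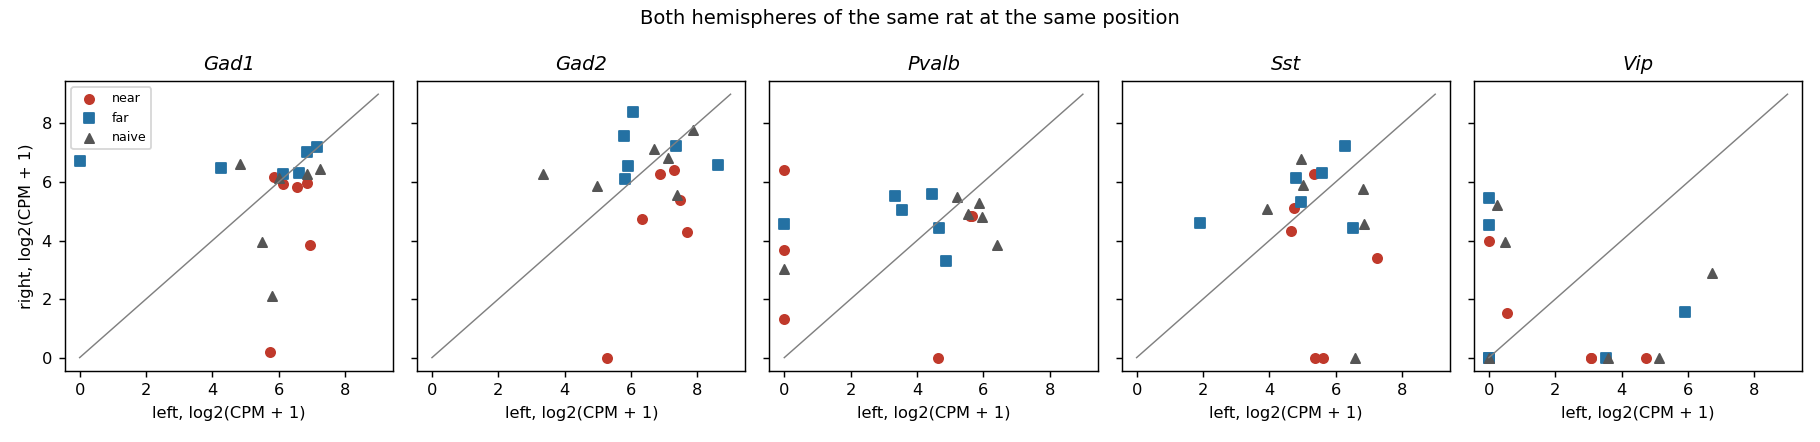
Level of each gene in the right against the left hemisphere of the same rat at the same position, in log2(CPM + 1), with the line of equality. Points on an axis had a count of 0 on one side, and points at the origin, seen for Vip, had 0 on both. The median difference between hemispheres was 0.757 for Gad1 and 3.56 for Vip.

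Most correlations between the 5 genes were low. Those of other gene pairs are not given here, so low values are not shown to be particular to these genes. Spread between libraries of a rat can also lower a correlation, and its share was not tested. Over the 30 rat-by-position samples, which share rats and scaling, Pearson's r in log2(CPM + 1) was 0.52 between Gad2 and Pvalb and 0.335 between Gad1 and Vip. The remaining pairs lay between -0.033 and 0.241, and Gad1 and Gad2, the genes of both enzyme forms, had r = 0.132. In the 12 near samples Gad1 and Gad2 had r = -0.075 and Gad2 and Pvalb had r = 0.339. Among the 3298 other genes whose log2(CPM + 1) averaged 5 or more, the pattern of Gad1 was most like those of ENSRNOG00000001893 (r = 0.75, 0 to 126 CPM) and ENSRNOG00000017158 (r = 0.748, 149 to 433 CPM), for which the files give no name.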

How the data were processed

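Gene counts came from laser-captured rat motor cortex, near and far from an electrode and in naive rats. Per the file headers and values, the authors deposited whole-number counts per Ensembl gene, in a table of implanted and a table of naive libraries, and these counts were used as deposited. The submitters' processing notes name, without role or order, the build Rnor_6.0, RSEM 1.3.1, STAR 2.6.1b, DESeq2, FastQC 0.11.8 and cutadapt 2.3. Rounding of estimated counts and the strand setting of the counting are not given in the sources used here, while the library kit keeps strand, per the labels' protocols.

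Counts of a rat's libraries at 1 distance were summed. Robust quasi-likelihood fits were made in edgeR 4.0.16 under R 4.3.3, after filterByExpr by group and TMM scaling, with Benjamini-Hochberg adjustment over all genes of a comparison and a threshold of 0.05. Fits of near against far tissue had the rat as a block. The pairing comes from the labels, which give the rat of each library, and near deviations from the group mean correlated with far deviations of that rat at between 0.00566 and 0.0883 across genes, above 0.1 in 0 of 12 rats. Comparisons between times within a tissue, and with naive tissue over the 15936 genes in both tables, had no block. Each ± after a log2 fold change is its size over the root of the F statistic, an approximate standard error of the fit that does not give the spread between rats. Rats are separate animals, and no pair of libraries of a group was alike within sampling noise (of 120 pairs, the lowest chi-square over degrees of freedom was 54.95).

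A two-sided exact sign-flip permutation test over the 12 implanted rats used log2(CPM + 1), for the 5 genes and for 14169 genes as background. Alternatives were DESeq2 1.42.0 size factors, its Wald test, no low-count filter, other pseudocounts, each rat left out, libraries not summed, other blocks and other groups in the fit, and, added after seeing the data, leaving out the 4 libraries with fewer than 6000 genes with a count. All 6 genes of the rule were to be named whether or not called, with the 2 IDs most like Gad1. The genes, lists and tests were chosen with earlier results of these data known. Lists of other genes by symbol could not be matched to IDs, and no gene sequences or coordinates are shown, since no genome of the files' build was used.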

Additional observations from a re-analysis of the deposited data

Results flagged for a closer look

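The level of Vip stood apart in single rats of 2 groups. In far tissue at 1 week, rat 20 had 29 CPM, while the other 4 rats had between 0 and 7.11 CPM. In near tissue at 6 weeks, rat 17 had 7.98 CPM, while the other 3 rats had between 0 and 1.11 CPM. In both cases the gap to the nearest rat exceeded the 95% critical value of Dixon's test. This was examined in 20 combinations of gene and group, and for normally distributed values chance alone gives about 1 such case in 20. Vip, with a count of 0 in 24 of 48 libraries, is not distributed in that way, so this rate need not hold for it.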

How the results depend on the processing

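Of 532 values recomputed under an alternative, 485 kept their direction and side of the threshold. Values far from the threshold had little room to change side, and leaving out a rat of another time hardly moved a near to far difference. The Gad2 calls held under 14 of 19 alternatives at 1 week and under 2 of 18 over the mean of the 3 times. The cause of the changes was not tested. The number of the 5 genes called near against far at 1 week, 1 as reported, was 0 with libraries not summed, without the libraries with few genes and with no replicate block, and 0 to 1 when a rat was left out. Over the mean of the 3 times it was 0 in place of 1 with DESeq2 size factors, the DESeq2 Wald test, no low-count filter, libraries not summed, without the libraries with few genes and with no replicate block, and 0 to 1 with a rat left out. The DESeq2 Wald test called 1 gene, Gad1, in far against naive tissue at 6 weeks and between naive positions, where edgeR called 0. Without the block no other call changed.

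The mean near minus far difference of Gad1 over rats was past 0.05 as reported and not with DESeq2 size factors (-1.30) or with log2 values of libraries averaged (-1.503). It ranged from -1.63 to -0.99 with a rat left out, and its exact permutation p was above 0.05 without any 1 of 7 of the 12 rats. That of Gad2 was not past it without the libraries with few genes (-0.90). Sst, near 0, turned negative at a pseudocount of 0.5 CPM (-0.013) and with averaged log2 values (-0.27), and ranged from -0.37 to 0.58 with a rat left out.

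Uncalled fitted differences changed sign for Pvalb at 24 h (0.14 with DESeq2 size factors and Wald test, 0.13 without the libraries with few genes, 0.25 with no replicate block, -0.55 to 0.63 with a rat left out). They did for Sst at 1 week (-0.31 with libraries not summed, -0.19 with no block, -0.95 to 0.99 with a rat left out) and over the mean of the times (-0.074, -0.027 and -0.21 to 0.42). Vip, at -5.56 at 1 week, did there (0.45 without the libraries with few genes, -7.65 to 0.44 with a rat left out). At 6 weeks Vip, at -1.21, did as well (-3.85 to 1.47 with a rat left out). With a rat left out, Gad2 at 24 h ran from -1.21 to 0.016, Gad1 at 1 week from -1.17 to 0.0075, and naive Gad2 from -1.24 to 0.15. The number of all genes called near against far at 1 week, 57, ran from 1 to 1304 over the alternatives, that at 24 h, 19, from 0 to 529, that at 6 weeks, 11, from 0 to 330, and that over the mean of the times, 217, from 83 to 1172.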
